A study of Mus musculus with 4 samples.

Results

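Elastic fibre and microfibril genes were examined in the RNA-seq of WT and *Phf2* KO mouse embryonic fibroblasts (MEFs). The 10 genes were taken by symbol from the 24391 gene symbols of the raw count table, and all 10 were found: *Eln*, *Fbn1*, *Fbn2*, *Fbln1*, *Fbln2*, *Fbln5*, *Mfap4*, *Mfap5*, *Lox* and *Emilin1*. All 10 also passed the filter on low counts, which left 13668 genes for testing. PHF2 is a histone demethylase of the KDM7 family, and the comparison asked whether its loss altered the RNA of these matrix genes in resting cells.

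There were 2 WT and 2 *Phf2* KO libraries, numbered replicate 1 and replicate 2 in each group. All 4 came from primary MEFs of E13.5 embryos with floxed *Phf2* alleles (*Phf2* flox/flox) and *ERCre*/+, a tamoxifen-inducible Cre recombinase expressed from the *Rosa26* locus. The sample descriptions mark the WT libraries as without tamoxifen and the *Phf2* KO libraries as with it. By the protocol, cells were kept quiescent in Opti-MEM with 2% charcoal-treated serum and 0.5 µM 4-hydroxytamoxifen for 7 days. The protocol is worded alike for all 4 libraries, so the medium or vehicle of the WT cells is not stated by name. Deletion of *Phf2*, active Cre and the drug came together in these groups, and their effects cannot be told apart.

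Elastic fibres give elastic tissues such as skin, lung and arteries their recoil. They are built extracellularly, from a core of cross-linked elastin laid down on a sheath of microfibrils. Fibrillins form the microfibril backbone, microfibril-associated glycoproteins and EMILIN1 decorate it or bridge it to the core, fibulins bring elastin to it, and lysyl oxidases cross-link elastin and collagen. Microfibrils also store TGF-β in latent form. Fibroblasts and smooth muscle cells are the main producers.

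Total counts ranged from 21094743 to 26094268, and levels are given as CPM, the counts relative to library size. The detection limit was set at 3 counts, equal to 0.115 to 0.142 CPM, for counting error only. After scaling by TMM, edgeR's trimmed mean of M values, *Phf2* was measured at 134.6 and 141.8 CPM in WT and at 70.17 and 89.77 CPM in *Phf2* KO, or 57.9% of the WT mean, with no overlap between the groups (edgeR quasi-likelihood test, adjusted p = 0.999). *Xist* was counted 10042 and 8336 times in replicate 1 of WT and *Phf2* KO, and 3 and 12 times in replicate 2, and 4 Y-linked genes had the opposite pattern, so replicate number went with the sex of the cells in both groups. Fibroblast markers, led by *Col1a1*, summed to 62740 and 68910 CPM in WT and to 58030 and 58140 CPM in *Phf2* KO. Macrophage markers, led by *Lyz2*, summed to 4644 CPM in WT replicate 1 and 983.6 CPM in WT replicate 2, and to 4992 and 1553 CPM in the *Phf2* KO replicates, with all 16 tested markers higher in replicate 1 of both groups. Smooth muscle markers, led by *Acta2*, summed to 1114 and 1775 CPM in WT and to 1143 and 1569 CPM in *Phf2* KO, and 8 of 9 were higher in replicate 2 of both groups. Endothelial markers, led by *Vwf*, summed to between 17.82 and 49.57 CPM with *Tie1* at 0 in every library. All 3 tested endothelial markers were higher in replicate 1 of both groups. Epithelial markers summed to at most 1.008 CPM and neural markers to between 83.81 and 99.75 CPM. Chondrocyte markers summed to 12.98 and 39.24 CPM in WT and to 12.37 and 41.6 CPM in *Phf2* KO. Of the 3 tested chondrocyte markers, 2 were higher in replicate 2 of both groups.

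Promoter sequence is shown for a fibulin gene that separated the groups and another that did not. *Fbln1* had the smallest p-value of the 10 genes and *Fbln5* gave overlapping groups, so both were picked with their values known. RefSeq promoter entries (GRCm38.p6) were matched for 5 of the 10 genes. Each stretch below covers the 250 bases before an annotated start, 5′ to 3′ on the gene's strand, and capitals mark the motif matches. The *Fbln1* stretch lies at chr15:85205699-85205948 on the plus strand and the *Fbln5* stretch at chr12:101819120-101819369 on the minus strand, and neither overlaps an annotated exon of its gene.

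Fbln1: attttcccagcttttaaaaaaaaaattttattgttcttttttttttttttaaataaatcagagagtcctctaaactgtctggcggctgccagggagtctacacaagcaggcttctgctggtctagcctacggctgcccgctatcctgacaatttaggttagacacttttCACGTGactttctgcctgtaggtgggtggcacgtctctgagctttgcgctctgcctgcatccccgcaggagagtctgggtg

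Fbln5: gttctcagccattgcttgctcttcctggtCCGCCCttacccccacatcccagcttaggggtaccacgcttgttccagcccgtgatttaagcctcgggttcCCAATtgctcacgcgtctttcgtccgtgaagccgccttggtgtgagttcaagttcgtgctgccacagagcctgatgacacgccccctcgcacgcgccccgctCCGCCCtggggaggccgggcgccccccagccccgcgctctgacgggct

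Both strands were searched for the TATA box (TATAAA), the CCAAT box (CCAAT), the GC box (GGGCGG), the AP-1 site (TGANTCA), a pair of E-boxes (CACGTG, and separately CAGCTG) and the palindrome TCGCGA, none of which overlapped another in these stretches. The *Fbln1* stretch held 1 CACGTG, at position -81 from the start, a motif present in 6.02% of 32851 promoter stretches of that length. The *Fbln5* stretch held 1 CCAAT, found in 33.8% of promoters, and 2 GGGCGG matches read on the opposite strand as CCGCCC, found in 32.7%. The *Fbln1* stretch had 46.4% GC and 7 CpG and the *Fbln5* stretch 65.2% GC and 21 CpG. Each gene had 2 entries, and the second, not shown, gave the opposite order: 62.4% GC and 14 CpG for *Fbln1*, with 1 GC box and 1 match to each E-box, and 49.6% GC, 6 CpG and none of these motifs for *Fbln5*. These matches are a description of the letters only.

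The fibre genes were among the most abundant transcripts of these cells. Their summed counts made up 1.5% of WT replicate 1, 1.69% of WT replicate 2, 1.54% of *Phf2* KO replicate 1 and 1.58% of *Phf2* KO replicate 2, so the total lay within the WT range in both *Phf2* KO libraries. To compare genes with each other, CPM was divided by exon length in kb on NCBIM37 (mm9). On this per-length scale *Eln* was highest, with a mean of 1113 CPM per kb and a range of 823.3 to 1340 over the 4 libraries. The annotated *Eln* model held 2583 exonic bases of which 2580 were coding, so it carries almost no UTR and its per-length level reads too high. Exon length was the union of all annotated exons, so a gene whose transcripts use only part of it reads too low. *Mfap5* had 3589 exonic bases of which 492 were coding, and *Fbln5* 5829 of which 1344 were coding. Whether their levels read too low was not tested. *Lox* followed at 878.4 (793.9 to 932.1), *Mfap4* at 773.5 (696.6 to 861.5) and *Fbln2* at 479.6 CPM per kb (437.4 to 528.4). The fibrillins stood lower, with *Fbn1* at 157.0 (136.9 to 177.0) and *Fbn2* at 139.2 CPM per kb (128.3 to 153.4). *Fbln5* had 105.4 (88.41 to 115.2) and *Emilin1* 70.32 CPM per kb (56.75 to 78.35). *Fbln1*, at 22.04 (18.64 to 26.12), and *Mfap5*, at 14.29 CPM per kb (8.947 to 20.75), were last. The ranges of *Eln* and *Lox*, *Lox* and *Mfap4*, *Fbn1* and *Fbn2*, and *Fbln1* and *Mfap5* overlapped, and the other neighbours in this order did not. Among 12603 tested genes with a length, 8 of the 10 lay at or above the 94.7th percentile, while *Fbln1* lay at the 80.8th and *Mfap5* at the 71.6th.

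**Figure D1:**
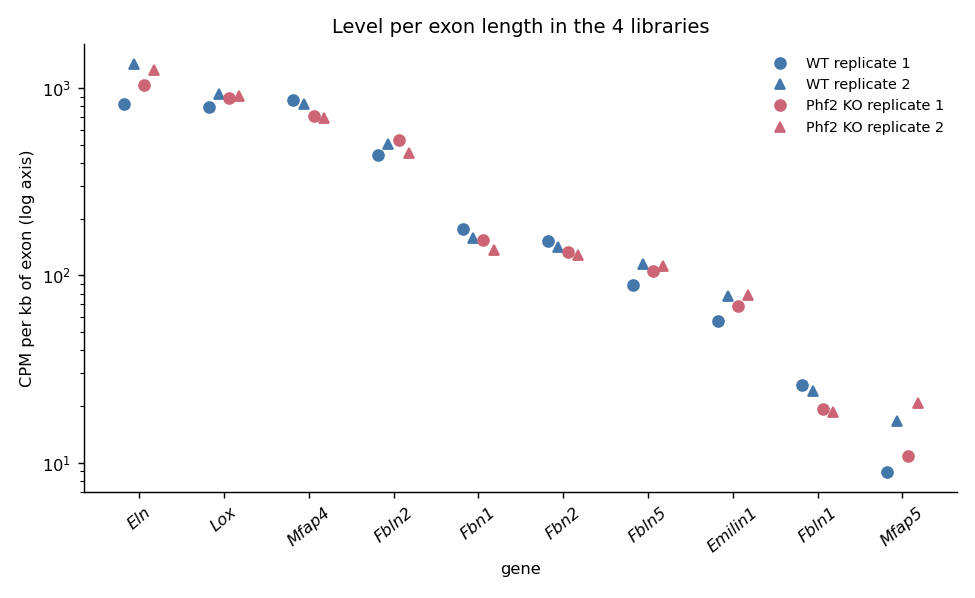
Level per exon length of the 10 genes in the 4 libraries, in CPM per kb of exon on a log axis, ordered by the mean. *Eln*, *Lox* and *Mfap4* lie highest, and *Fbln1* and *Mfap5* lowest, in all 4 libraries.

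In the comparison of *Phf2* KO with WT, 4 genes were lower in both *Phf2* KO libraries than in both WT libraries: the fibrillins *Fbn1* and *Fbn2*, the microfibril-associated *Mfap4*, and *Fbln1*. Their mean levels in *Phf2* KO were 87.1%, 88.8%, 83.6% and 75.5% of WT. The other 6 genes, among them *Eln* and *Lox*, gave overlapping groups, and none of the 10 was higher in both *Phf2* KO libraries. Over all genes tested, 18% lay below WT in both *Phf2* KO libraries and 15.5% above. Of the 11 fibroblast markers, 4 lay below WT in both *Phf2* KO libraries, 0 above, and 7 overlapped, with none at 0, and their part in the lower values was not tested. None of the differences passed correction when the groups were compared without a block for replicate number. In edgeR's quasi-likelihood test 0 of 10 genes were called at an adjusted p below 0.1, against 0.00732% of all genes, and the adjusted p was 0.999 for each. The same test did not call *Phf2*, the deleted gene, either (adjusted p = 0.999), so a lack of calls does not show a lack of change. At an unadjusted p below 0.05 the count was 1 lower and 0 higher, against 2.67% and 1.54% of all genes. DESeq2 and limma-voom also called 0 of 10, against 0.399% and 0% of all genes. With the replicate number as a block, a pairing that the sources do not state, edgeR called 2 of 10, *Fbln1* lower and *Mfap5* higher, against 11% of all genes. *Phf2* itself was called lower in that fit (edgeR adjusted p = 7.67e-19). Log2 fold changes of the 10 genes ran from -0.40 to 0.30 with a median of 0.06, beside 0.0054 over all genes. In bulk RNA, fewer cells of a type and less RNA per cell cannot be told apart. These p-values measure the spread between libraries with 2 in each group. The study describes the replicates as biological, and in both groups they differed in sex.

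**Figure D2:**
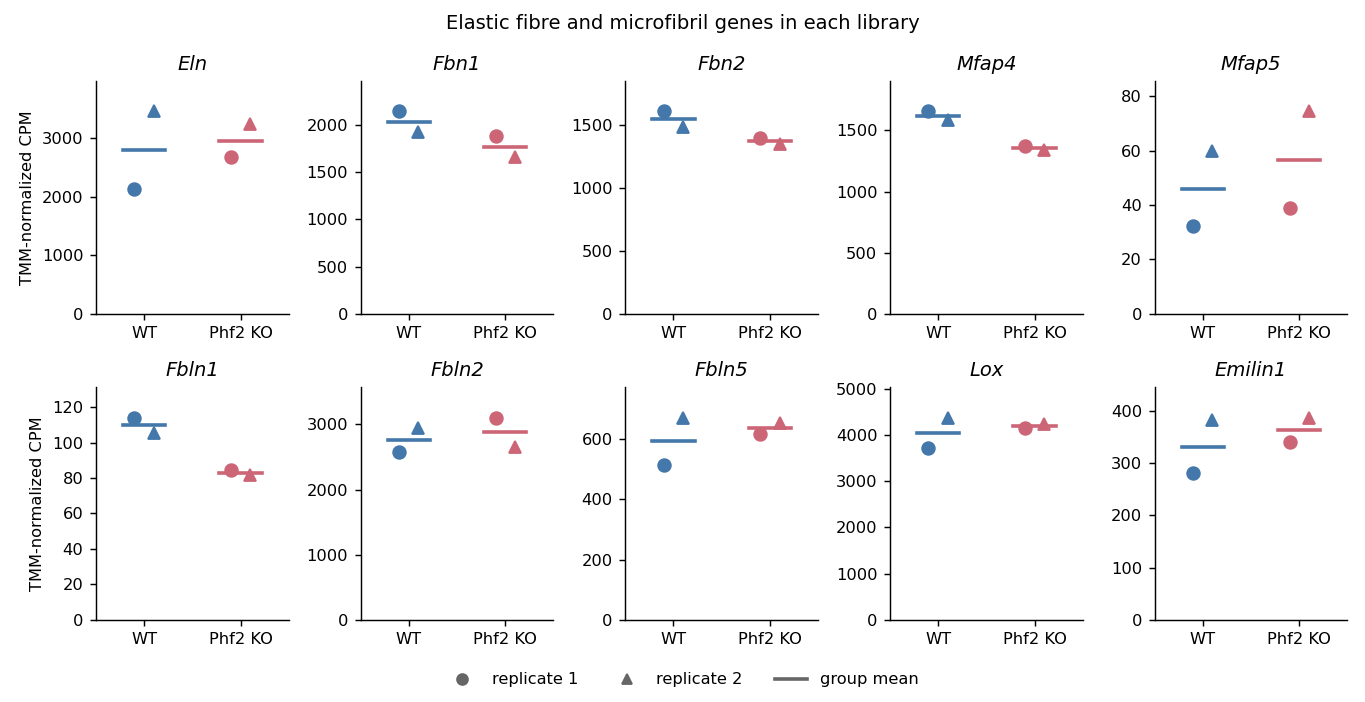
CPM of each of the 10 genes in WT replicates 1 and 2 and *Phf2* KO replicates 1 and 2, with the group means. The groups are separate, with *Phf2* KO lower, for *Fbn1*, *Fbn2*, *Fbln1* and *Mfap4*, and overlap for the other 6 genes.

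The fibrillins are the large glycoproteins that assemble into the microfibril itself, with fibrillin-2 best known from developing tissue. Positions are given on NCBIM37 (mm9). *Fbn1* (2:125126330-125333729, minus strand, 65 exon blocks, with *Gm9913* on the opposite strand) was measured at 2147 and 1923 CPM in WT replicates 1 and 2 and at 1884 and 1661 CPM in *Phf2* KO replicates 1 and 2. The highest *Phf2* KO library lay just under the lowest WT library. The means were 2035 ± 158 and 1772 ± 158 CPM (SD, n = 2), a log2 fold change of -0.20 with SE 0.126 and a 95% interval of -0.53 to 0.14. *Fbn2* (18:58168277-58369580, minus strand, 65 exon blocks) had 1607 and 1483 CPM in WT and 1399 and 1345 CPM in *Phf2* KO. Again both *Phf2* KO values were below both WT values, by a log2 fold change of -0.17 (SE 0.105, interval -0.45 to 0.10). The fibrillins were also compared with each other. The ratio of *Fbn2* to *Fbn1* counts, which does not depend on library scaling, was 0.7487 and 0.7713 in WT, against 0.7428 and 0.8099 in *Phf2* KO, and the groups overlapped (exact permutation test, two-sided, p = 1.0).

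Microfibril-associated glycoproteins sit on or beside the fibrillin fibre. MFAP4 carries a fibrinogen-like domain and binds elastin and fibrillin, whereas MFAP5, also called MAGP2, binds fibrillins and integrins. *Mfap4* (11:61298933-61302402, plus strand) was measured at 1656 and 1582 CPM in WT and at 1370 and 1339 CPM in *Phf2* KO. The replicates of each group lay close together, and the groups did not overlap. Its log2 fold change was -0.26 (SE 0.0986, interval -0.52 to 0.0033). The protein-coding gene *Mapk7* overlaps *Mfap4* on the opposite strand. Reads were aligned as reverse stranded. *Mfap5* (6:122455863-122479308, plus strand) had 32.11 and 59.89 CPM in WT and 38.71 and 74.46 CPM in *Phf2* KO. Here the replicates lay further apart than the groups, with replicate 2 the higher one in both. The log2 fold change was 0.30 with SE 0.435 and an interval of -0.85 to 1.45, the widest of the 10. The ratio of *Mfap5* to *Mfap4* counts was 0.01939 and 0.03785 in WT, against 0.02826 and 0.05562 in *Phf2* KO, with overlapping groups (exact permutation test, p = 0.667).

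Elastin forms the extensible core and lysyl oxidase oxidises its lysines so that they cross-link. *Eln* (5:135179651-135223111, minus strand, 37 exon blocks) was measured at 2127 and 3462 CPM in WT and at 2675 and 3240 CPM in *Phf2* KO. Both *Phf2* KO values lay between the WT values, and replicate 2 was the higher one in both groups. The log2 fold change was 0.08 (SE 0.269, interval -0.63 to 0.79). *Lox* (18:52675723-52689521, minus strand) had 3729 and 4378 CPM in WT and 4150 and 4247 CPM in *Phf2* KO, again inside the WT range. Its log2 fold change was 0.05 with an interval of -0.30 to 0.40 (SE 0.132). The ratio of *Lox* to *Eln* was 1.753 and 1.265 in WT, against 1.551 and 1.311 in *Phf2* KO, and that of *Eln* to *Fbn1*, the core relative to the sheath, was 0.9907 and 1.8 in WT, against 1.42 and 1.951 in *Phf2* KO. Both ratios overlapped between the groups (exact permutation test, p = 1.0 and p = 0.667).

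Fibulins connect elastin, fibrillins and basement membranes, and fibulin-5 in particular tethers elastin and lysyl oxidase-like enzymes to the microfibril. *Fbln1* (15:85036379-85116965, plus strand, 19 exon blocks) took 2750 and 2731 counts in WT and 1746 and 1957 counts in *Phf2* KO, which gave 114.1 and 105.2 CPM in WT and 84.27 and 81.41 CPM in *Phf2* KO. The groups lay further apart than the replicates of either. The means were 109.7 ± 6.25 and 82.84 ± 2.02 CPM (SD, n = 2), and the log2 fold change was -0.40 with SE 0.0831 and an interval of -0.62 to -0.18 (edgeR adjusted p = 0.999). *Fbln1* was the only one of the 10 with an unadjusted p below 0.05 in this edgeR fit. *Mfap4* also fell below it in DESeq2 (unadjusted p = 0.0079) and limma-voom (unadjusted p = 0.0382). *Fbln2* (6:91162449-91222534, plus strand) had 2570 and 2945 CPM in WT and 3105 and 2652 CPM in *Phf2* KO, and its log2 fold change was 0.06 (SE 0.143, interval -0.32 to 0.44). *Fbln5* (12:102984775-103057265, minus strand) had 515.4 and 671.3 CPM in WT and 616.9 and 653.6 CPM in *Phf2* KO, with a log2 fold change of 0.10 (SE 0.156, interval -0.31 to 0.51). Neither separated the groups. The fibulins were also compared with each other inside each library. There were 22.53 and 27.98 counts of *Fbln2* for each count of *Fbln1* in WT, against 36.84 and 32.58 in *Phf2* KO. There were 4.517 and 6.378 counts of *Fbln5* for each count of *Fbln1* in WT, against 7.321 and 8.029 in *Phf2* KO. Both ratios were higher in both *Phf2* KO libraries, each at p = 0.333 in the exact two-sided permutation test, the smallest p that 2 against 2 allows. Over the 6 ratios computed the adjusted p was 1.0 for each.

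EMILIN1 lies at the interface of core and microfibril. *Emilin1* (5:31215775-31223651, plus strand) was measured at 280.3 and 382.5 CPM in WT and at 339.3 and 386.9 CPM in *Phf2* KO. The groups overlapped, and replicate 2 was higher in both. The log2 fold change was 0.13 (SE 0.181, interval -0.35 to 0.61).

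**Figure D3:**
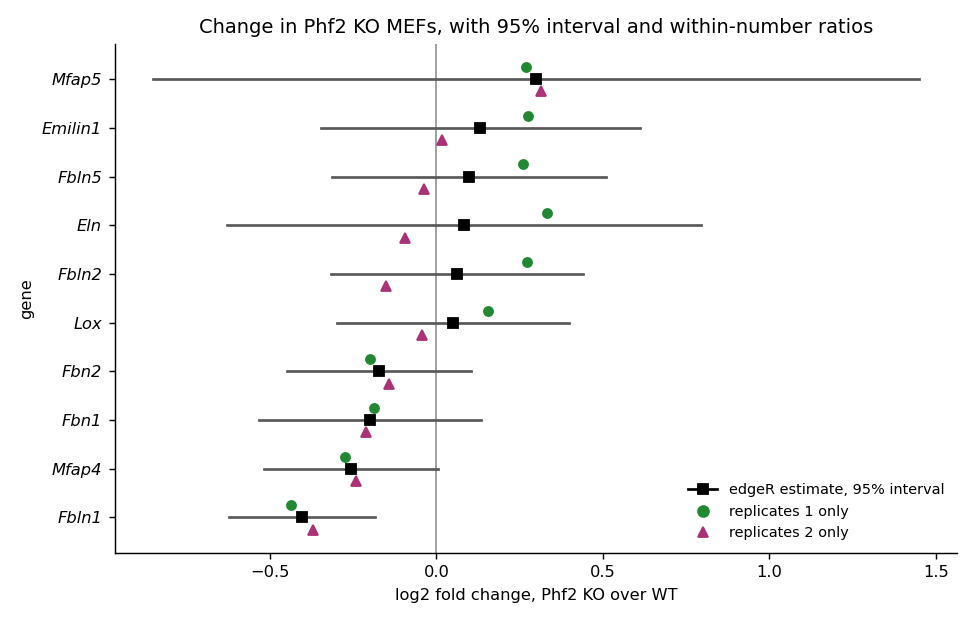
Log2 fold change of *Phf2* KO over WT for the 10 genes from edgeR, with 95% intervals as bars. The interval lies wholly below 0 for *Fbln1*, from -0.62 to -0.18, and includes 0 for the other 9 genes, most closely for *Mfap4*.

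Replicate number went with sex and with the summed macrophage, smooth muscle, endothelial and chondrocyte markers. The log2 ratio of *Phf2* KO to WT was also taken within replicate 1 and within replicate 2, each from 1 library a side and so without a test. For the 4 genes with *Phf2* KO below WT, both ratios had to be negative. *Fbln1* gave -0.44 and -0.37, *Mfap4* -0.27 and -0.24, *Fbn1* -0.19 and -0.21, and *Fbn2* -0.20 and -0.14. *Mfap5* gave 0.27 and 0.31, so its higher level in *Phf2* KO was also met within both numbers. *Emilin1* gave 0.28 and 0.02. The ratio changed sign for *Eln* at 0.33 and -0.10, for *Fbln2* at 0.27 and -0.15, for *Fbln5* at 0.26 and -0.04, and for *Lox* at 0.15 and -0.04. In all, 6 of the 10 genes had one sign in both replicate numbers, beside 8575 of 13668 genes tested.

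The replicates themselves differed most for *Mfap5*, and in WT also for *Eln*. The log2 ratio of replicate 2 to replicate 1 was 0.90 in WT and 0.94 in *Phf2* KO for *Mfap5*, 0.70 and 0.28 for *Eln*, 0.45 and 0.19 for *Emilin1*, 0.38 and 0.08 for *Fbln5*, and 0.23 and 0.03 for *Lox*. These 5 of the 10 genes were thus higher in replicate 2 of both groups, beside 4904 of 13668 genes tested and 8 of the 9 smooth muscle markers. *Fbn1*, *Fbn2*, *Fbln1* and *Mfap4* were slightly higher in replicate 1 of both groups, with log2 ratios between -0.18 and -0.03, beside 4475 of 13668 genes tested. The part of smooth muscle, macrophage, endothelial and chondrocyte RNA, whose summed markers moved with replicate number, in these values was not tested.

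**Figure D4:**
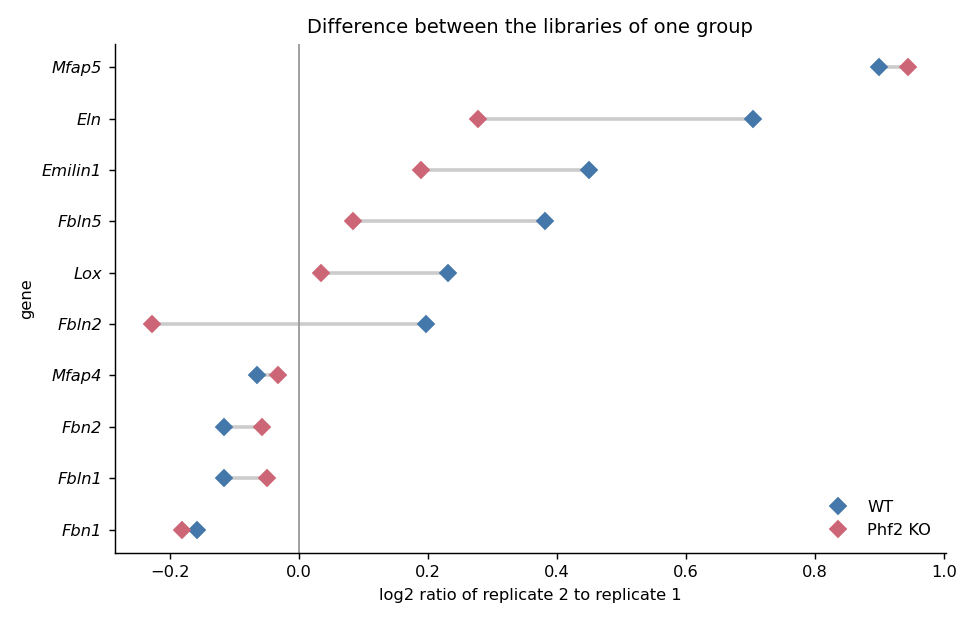
Log2 ratio of replicate 2 to replicate 1 in WT and in *Phf2* KO for each of the 10 genes. *Mfap5* lies farthest up in both groups, at 0.90 and 0.94, *Eln* differs between them at 0.70 and 0.28, and *Fbn1*, *Fbn2*, *Fbln1* and *Mfap4* lie just below 0 in both.

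Other genes of the elastic fibre were taken as lists of relatives, modifiers, proteases and receptors. Of 50 listed, 46 were tested and 0 were called by edgeR or limma-voom at an adjusted p below 0.1, against 0.00732% and 0% of all genes. DESeq2, which took in 49 of them, called 1, *Loxl2*, against 0.399% of all genes. With the replicate number as a block, edgeR called 18 of the 46, 10 higher and 8 lower, against 11% of all genes. *Emilin3*, *Mmrn1*, *Tll2* and *Elane* had too few counts for the edgeR filter. At an unadjusted p below 0.05, 3 were lower and 0 higher in edgeR, against 2.67% and 1.54% of all genes. In both *Phf2* KO libraries 9 lay below WT and 7 above, against 18% and 15.5% of all genes. The median log2 fold change was 0.02, with values from -0.75 to 0.43.

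Relatives of *Lox* did not share a direction. *Loxl2*, a lysyl oxidase known for acting on collagen IV, had 774 and 686 CPM in WT and 492 and 532 CPM in *Phf2* KO, with a log2 fold change of -0.51 (SE 0.111, edgeR adjusted p = 0.999). Both *Phf2* KO values lay below both WT values. *Loxl4* was also lower in both *Phf2* KO libraries, at 3.62 and 6.03 CPM against 6.85 and 9.44 CPM in WT. *Loxl1*, which acts on elastin together with fibulin-5, had 871 and 1180 CPM in WT and 1210 and 1230 CPM in *Phf2* KO (log2 fold change 0.26).

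The latent TGF-β binding proteins, fibrillin relatives that hold TGF-β on the microfibril or assist elastin assembly, did not share one either. *Ltbp4*, which together with fibulin-5 is needed for elastin assembly, had 111 and 122 CPM in WT and 89.5 and 84.3 CPM in *Phf2* KO, a log2 fold change of -0.42 (SE 0.0901, edgeR adjusted p = 0.999). *Ltbp2* had 791 and 1210 CPM in WT and 1270 and 1430 CPM in *Phf2* KO, a log2 fold change of 0.43 (SE 0.232). *Ltbp4* was thus near *Fbln1* in the size of its difference, and *Ltbp2* had the highest fold change of the 46 genes.

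Without the block, adjusted p was 0.999 in edgeR for each tested gene of these lists that is named here. With replicate number as a block, a pairing the sources do not state, edgeR's adjusted p was 5.03e-06 for *Loxl2* and 2.74e-05 for *Ltbp4*. It was 0.00035 for *Ltbp2*, 5e-05 for *Fbln7*, 0.00016 for *Adamts10* and 0.00898 for *Hmcn1*. That fit also called *Loxl1*, *Loxl4*, *Efemp2*, *Emilin2*, *Adamts17*, *Furin*, *Tll1* and *Ctss*, but not *Mfap2*, *Bmp1*, *Mmp2* or *Itgb1*. Among the fibulin relatives, *Efemp2* (fibulin-4, needed for lysyl oxidase to reach elastin) was higher in both *Phf2* KO libraries, at 535 and 568 CPM against 419 and 495 CPM (log2 fold change 0.27). *Fbln7* and *Hmcn1* gave overlapping groups, with log2 fold changes of 0.32 and -0.33. *Mfap2* (MAGP1) had 289 and 322 CPM in WT and 300 and 317 CPM in *Phf2* KO. *Emilin2* was at 45.0 and 28.2 CPM in WT and at 40.5 and 21.8 CPM in *Phf2* KO. Of the ADAMTS proteases that bind fibrillin, *Adamts10* overlapped between the groups (log2 fold change 0.38, SE 0.384) and *Adamts17* was lower in both *Phf2* KO libraries, at 5.84 and 6.74 CPM against 7.88 and 9.56 CPM.

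Of the 7 tested genes for copper supply and propeptide processing, 1 had an unadjusted p below 0.05, *Tll1*. *Furin*, the convertase that cuts profibrillin, had 178 and 201 CPM in WT and 236 and 219 CPM in *Phf2* KO (log2 fold change 0.27). *Bmp1*, which cuts the lysyl oxidase propeptide, had 371 and 487 CPM in WT and 437 and 532 CPM in *Phf2* KO, and its relative *Tll1* was lower at 3.81 and 4.28 CPM against 6.43 and 5.36 CPM (log2 fold change -0.54). By CPM, which is not corrected for length, the highest elastin-degrading protease was *Mmp2*, at 1380 and 2070 CPM in WT and 1450 and 1970 CPM in *Phf2* KO. *Ctss*, a cysteine protease of macrophages, had 185 and 31.2 CPM in WT and 186 and 46.0 CPM in *Phf2* KO, and so went with the macrophage markers by replicate number. By the same measure the highest receptor gene was *Itgb1*, an integrin subunit, at 876 and 885 CPM in WT and at 950 and 1010 CPM in *Phf2* KO (log2 fold change 0.15, interval -0.10 to 0.41).

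**Figure D5:**
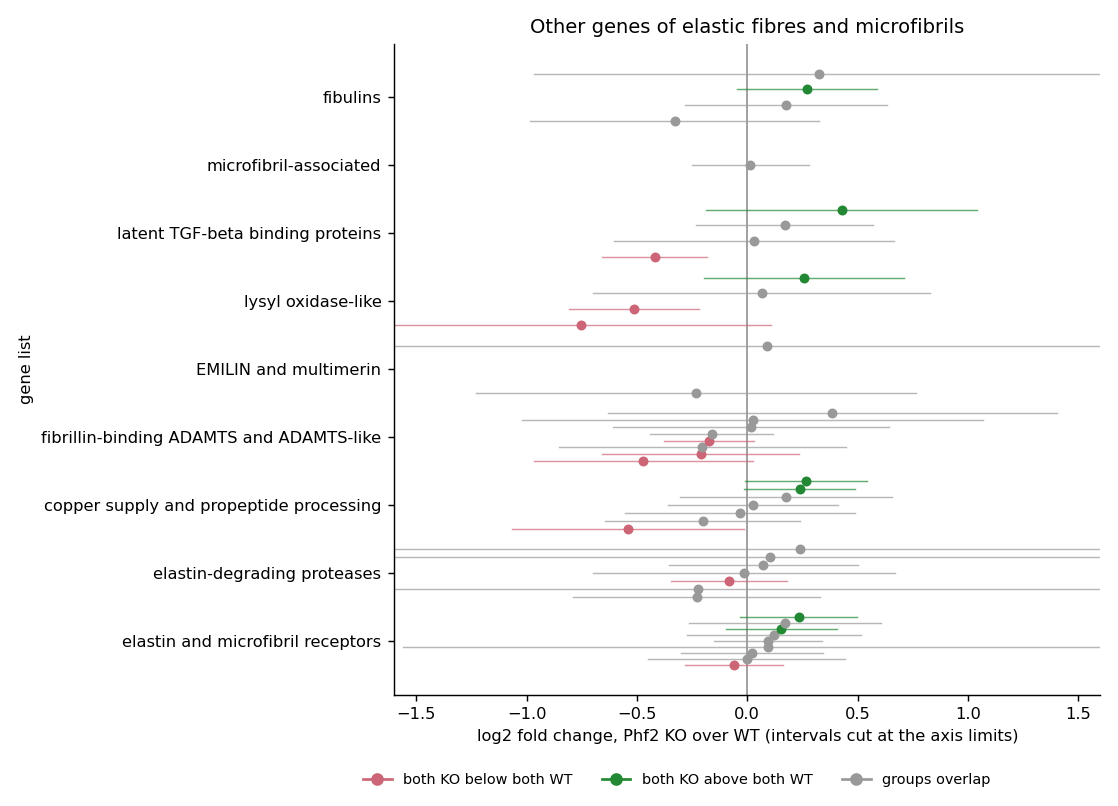
Log2 fold change of *Phf2* KO over WT for the tested genes of the other elastic fibre lists, grouped by list. Values run from -0.75 for *Loxl4* to 0.43 for *Ltbp2*, with the median at 0.02.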

How the data were processed

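RNA-seq counts of 2 WT and 2 *Phf2* KO MEF libraries were used, grouped by their sample labels. The authors used Trim Galore for trimming, Bowtie2 to take out ribosomal reads and STAR to align the rest to mm9 as reverse stranded, and deposited whole-number featureCounts counts per gene symbol, not normalized. Versions and annotation release are not given in the sources used here. The authors' second table holds their DESeq2 comparison and was not used.

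Genes were filtered with filterByExpr, scaled by TMM and tested with edgeR 4.0.16 (glmQLFit, glmQLFTest, R 4.3.3), adjusting p by Benjamini-Hochberg for 13668 genes and calling at 0.1. The SE was the absolute log2 fold change over the square root of F, with 95% intervals from the fit's total degrees of freedom. CPM of single genes and per-length levels were TMM-scaled, while summed levels and shares used library size alone. Ratios of counts were tested by exact permutation of the 4 libraries. Positions came from GENCODE on NCBIM37 and promoters from RefSeq (GRCm38.p6). The scripts were tested on simulated data. Tables and figures used Python 3.11.15, pandas 2.3.3, SciPy 1.17.1 and Matplotlib 3.10.9.

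Alternatives were DESeq2 1.42.0, limma 3.58.1 (voom), RLE or library size alone as scaling, a filter of 1 count or of 1 CPM in 2 or more libraries, calling at 0.05 or 0.01, the replicate number as a block, and each library left out. The 10 genes and the lists were chosen with earlier results of these data known. Besides the 10 genes and *Phf2*, the text names genes of the other elastic fibre lists that were called with or without the block (up to 12 by p) or had the highest mean CPM of their list, and of the fibroblast, macrophage, smooth muscle, endothelial, epithelial, chondrocyte and neural marker lists the gene with the highest mean CPM or a marker at 0, and the sex genes. DESeq2's call and the genes with too few counts are named beside their counts.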

Additional observations from a re-analysis of the deposited data

How the results depend on the processing

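With 2 libraries a group, edgeR called 1 gene of 13668, which is in none of the elastic fibre lists. *Phf2*, at 57.9% of the WT mean, was not called in that fit, which had no block for replicate number. The same libraries gave a call of *Phf2* with the block (edgeR adjusted p = 7.67e-19). A lack of calls without the block does not show a lack of change, and 2 libraries a group limit every statement on differences. The count of all genes called was 64 with DESeq2, 0 with limma-voom (223 higher and 352 lower at an unadjusted p below 0.05), 0 at thresholds of 0.05 and 0.01, and 0 to 0 when each library was left out. The count of other elastic fibre genes called was 1 with DESeq2. Without the block, 0 of the 10 genes were called under each other test, scaling, filter, threshold or left-out library.

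The log2 fold changes of *Fbn1* (-0.29 to -0.11), *Fbn2* (-0.24 to -0.10), *Fbln1* (-0.48 to -0.33) and *Mfap4* (-0.31 to -0.21) stayed below 0 when each library was left out. For these genes both *Phf2* KO libraries lay below both WT libraries, so the sign was set beforehand and is no test of stability. The log2 fold changes of the other 6 genes did not keep their sign. *Eln* ranged from -0.22 (without WT replicate 1) to 0.46 and was -0.06 without *Phf2* KO replicate 2. *Fbln2* ranged from -0.057 (without *Phf2* KO replicate 1) to 0.17 and was -0.02 without WT replicate 1. *Fbln5* ranged from -0.068 to 0.29, *Lox* from -0.049 to 0.16 and *Emilin1* from -0.063 to 0.36, each lowest without WT replicate 1. *Mfap5* ranged from -0.25 (without *Phf2* KO replicate 2) to 0.80 and was -0.07 without WT replicate 1. The lone library of a group is there assumed to vary like the other group.

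The labels and methods state no pairing by replicate number. In the counts, the log2 difference of the replicates was correlated between WT and *Phf2* KO across 13668 genes, which are not independent (Pearson's r = 0.809), and both replicates 1 expressed *Xist*, which is a hint from the data and not the design. With the replicate number as a block, edgeR's common dispersion was 0.00363 in place of 0.0451 and the count of all genes called was 1500 (11%). It was 297 (3.67%) for the block in DESeq2, 1371 (10%) in limma-voom, 1611 with RLE and 1613 with library size alone, the last 4 being chosen after seeing the data. The block called 2 of the 10 genes in edgeR, *Fbln1* lower (adjusted p = 6.86e-05) and *Mfap5* higher (adjusted p = 0.0178), and 2 in DESeq2, *Fbln1* and *Mfap4*. It called 3 in limma-voom, 3 with RLE and 3 with library size alone, each time *Fbln1*, *Mfap4* and *Mfap5*. Over the 5 block fits the adjusted p of *Fbln1* ran from 2.3e-06 to 0.0181, of *Mfap4* from 0.0181 to 0.12 and of *Mfap5* from 0.0101 to 0.349. Of the other elastic fibre genes the block called 18 in edgeR (10 higher, 8 lower), 5 in DESeq2, 16 in limma-voom, 18 with RLE and 17 with library size alone.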
